A study of Mus musculus with 8 samples.

Results

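The circadian clock genes described here are 10 genes taken by name: the activators Arntl (also called Bmal1), Clock and Npas2, the repressors Per1, Per2, Per3, Cry2, Nr1d1 and Nr1d2, and the output gene Dbp. They are 10 of the 39056 genes in the count table, and all 10 were among the 14796 genes that passed the filter on low counts. RNA sequencing was performed on hearts of 4 HVCN1 null mice (HVCN1-/-, labelled as an Hv1 knockout) and 4 wild-type (WT) mice, all male, 3 months old and on a C57BL/6 background. HVCN1 is a voltage-gated proton channel, and the question was how its loss changes transcription in the heart. No promoter or Cre driver is named, and whether the groups were littermates is not given in the sources used here. The mice were kept in equal cycles of light and dark, but the time of day at which each heart was taken is not given. The transcripts of clock genes cycle over the day, so a difference in genotype and a difference in collection time cannot be told apart here.

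The molecular clock is a feedback loop in which ARNTL pairs with CLOCK or NPAS2, binds E-box sequences and switches on the Per and Cry genes, whose proteins then block that pair. A linked loop runs through NR1D1 and NR1D2 (the REV-ERB receptors), which repress Arntl through ROR elements, so that Arntl RNA and the RNAs of its targets peak at opposite times of the day. In cardiac myocytes this clock is known to time metabolism and ion channel expression, and Per1 and Per2 also respond directly to glucocorticoids and other acute signals.

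Promoter sequences show which of these elements stand near the starts of the genes. RefSeq promoters on GRCm38.p6, running from 250 bases before to 50 bases after a start, were found for 9 of the 10 genes (13 promoters), and none was matched for Per2. Both strands were searched for the E-box CACGTG, the E'-box CACGTT, the D-box TTANGTAA, the ROR element core TAGGTCA and the cAMP response element TGACGTCA. These letters were found in 7.15%, 4.68%, 2.32%, 2.61% and 1.79% of the 32851 promoters in the table, respectively. A match was found for 5 of the genes, whose sequences are printed 5′ to 3′ on the strand of the gene with the matches in capitals. Per1, Per3 and Arntl are shown because the results turn on them, and Cry2 and Nr1d1 because they hold the other matches. The Per1 sequence (chr11:69098699-69098998, plus strand) held an E-box 166 bases before the start. The Per3 sequence (chr4:151044616-151044915, minus strand) held the D-box letters 205 and 158 bases before the start. The Arntl sequence (chr7:113207411-113207560, plus strand) held the ROR core 30 bases after the start. The Cry2 sequence (chr2:92434170-92434269, minus strand) and the Nr1d1 sequence (chr11:98775358-98775457, minus strand) held the E'-box, read as AACGTG, 166 and 28 bases before the start.
Per1: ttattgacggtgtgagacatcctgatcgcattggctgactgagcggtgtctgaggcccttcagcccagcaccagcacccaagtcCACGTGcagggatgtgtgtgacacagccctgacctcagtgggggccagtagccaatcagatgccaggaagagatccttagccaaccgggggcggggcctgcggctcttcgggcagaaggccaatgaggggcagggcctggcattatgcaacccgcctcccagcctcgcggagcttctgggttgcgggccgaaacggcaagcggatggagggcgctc
Per3: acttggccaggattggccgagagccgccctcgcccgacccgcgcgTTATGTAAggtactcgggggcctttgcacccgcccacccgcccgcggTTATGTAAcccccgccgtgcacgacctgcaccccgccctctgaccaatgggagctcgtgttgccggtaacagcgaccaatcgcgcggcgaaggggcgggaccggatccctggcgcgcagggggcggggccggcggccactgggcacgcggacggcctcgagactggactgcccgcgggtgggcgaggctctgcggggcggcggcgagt
Arntl: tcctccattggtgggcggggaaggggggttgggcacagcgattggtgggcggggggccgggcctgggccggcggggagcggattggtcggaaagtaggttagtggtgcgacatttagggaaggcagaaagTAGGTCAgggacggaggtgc
Cry2: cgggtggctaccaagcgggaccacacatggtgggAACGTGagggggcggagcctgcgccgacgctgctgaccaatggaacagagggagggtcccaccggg
Nr1d1: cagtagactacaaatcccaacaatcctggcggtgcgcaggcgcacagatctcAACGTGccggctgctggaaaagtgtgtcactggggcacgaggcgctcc
The windows of Clock, Npas2, Nr1d2 and Dbp held none of the 5 motifs. A match is a run of letters, not a shown binding site.

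The libraries held 25851255 to 38874640 counts per heart, and the lowest count of any clock gene in any heart was 106, for Per2. Levels are given as CPM, the counts scaled to a common library size after TMM normalization. Hvcn1 itself had a total of 16 counts in the HVCN1 null group against 318 in the WT group (log2 fold change -4.20, edgeR quasi-likelihood adjusted p = 3.63e-04). Mitochondrial genes took 23.7% to 30.2% of the counts. The 6 ventricular myocyte markers summed to 50045 to 64454 CPM in all hearts. The 5 atrial markers (Nppa, Sln, Myl7, Myl4 and Mybphl) summed to 3261 to 7794 CPM in HVCN1 null hearts 2 and 3 and WT hearts 5 and 7. In the other 4 hearts they summed to 84.8 to 314 CPM. Log2 fold changes of Per1, Per2, Per3, Dbp and Arntl and the balance of the arms are therefore also given within each of these sets. In the low set the sums were 310 and 314 CPM in HVCN1 null hearts 1 and 4, against 122 and 84.8 CPM in WT hearts 6 and 8. There edgeR called Myl4, Myl7 and Sln higher in HVCN1 null hearts, so atrial markers were not held equal within that set. The 4 smooth muscle markers summed to 271 to 522 CPM in HVCN1 null hearts and 165 to 240 CPM in WT hearts, so the groups did not overlap, and their part in the results was not tested. The hearts are bulk samples, in which fewer cells of a type and less RNA per cell cannot be told apart.

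Per1, Per2, Per3 and Dbp were higher on average in HVCN1 null hearts and Arntl was lower, while Clock, Npas2, Cry2, Nr1d1 and Nr1d2 had intervals that included no change. Only Per1 passed the test over all genes in the edgeR quasi-likelihood fit. This is 1 of 10 genes called higher at an adjusted p under 0.05, beside 0.743% of all genes tested, and no clock gene was called lower, beside 0.399%. At an unadjusted p under 0.05, 4 of the 10 were higher (Per1, Per2, Per3 and Dbp), beside 5.46% of all genes, and 1 was lower (Arntl), beside 5.52%. The 4 HVCN1 null hearts lay wholly above the 4 WT hearts for 2 of the 10, Per1 and Per2, beside 3.60% of all genes, and wholly below for none, beside 3.45%. The median log2 fold change was 0.03 over the 10 genes and -0.01 over all genes tested, with 5 of the 10 above 0 and 5 below.

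**Figure D1:**
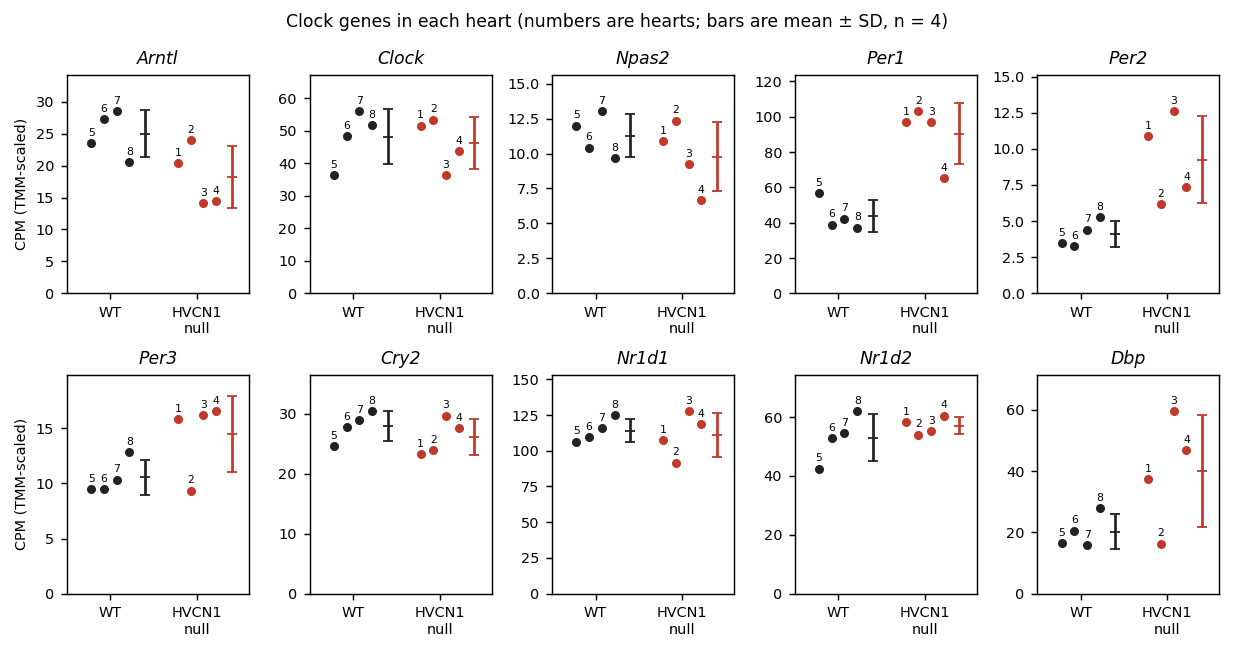
CPM (TMM-scaled) of the 10 clock genes in each heart, with WT hearts 5 to 8 in black, HVCN1 null hearts 1 to 4 in red, and bars for the mean ± SD (n = 4). The red points lie above all black points for Per1 and Per2 only, and HVCN1 null heart 2 lies at the level of the WT hearts for Arntl, Per3 and Dbp.

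Per1 (ENSMUSG00000020893, chr11:69095217-69109960 on GRCm38, plus strand) encodes a PERIOD repressor and responds quickly to light, hormones and stress signals. Its CPM was 96.9, 103, 96.8 and 65.1 in the HVCN1 null group (hearts 1 to 4) against 56.8, 38.9, 42.4 and 37.3 in the WT group (hearts 5 to 8). Every HVCN1 null heart was higher than every WT heart, heart 4 being the lowest of its group and heart 5 the highest of the WT group. The means were 90.5 ± 17.2 and 43.9 ± 8.91 CPM (SD, n = 4 each), a 2.06-fold difference. The log2 fold change was 1.04 (standard error 0.17, 95% interval 0.66 to 1.43, edgeR adjusted p = 0.0178). The exact permutation test of the CPM difference gave p = 0.0286, the smallest p that the 70 assignments of 8 hearts allow (two-sided). Among the hearts with high atrial markers the mean Per1 level was 100 CPM in HVCN1 null and 49.6 CPM in WT hearts, and among those with low atrial markers 81.0 and 38.1 CPM, so the log2 fold change was 1.01 and 1.10 within the sets (edgeR adjusted p = 0.224 and 0.0826, 2 hearts a group). Over all 8 hearts Per1 was called in all 8 other settings of scaling, filter and test. With 1 heart left out the adjusted p ran from 0.00517 to 0.0776, and the call was lost without HVCN1 null heart 1 or 3 or WT heart 6 or 8.

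Per2 (ENSMUSG00000055866, chr1:91415982-91459324, minus strand), a PERIOD repressor and the least abundant of the 10 per length of exon in WT hearts, had the largest fold change of the 10. Its CPM was 10.9, 6.15, 12.6 and 7.38 in the HVCN1 null group (hearts 1 to 4) against 3.47, 3.28, 4.42 and 5.27 in the WT group (hearts 5 to 8). The groups did not overlap, but HVCN1 null heart 2 and WT heart 8 came close. The log2 fold change was 1.17 (standard error 0.24, 95% interval 0.63 to 1.71), and the edgeR adjusted p of 0.0527 missed the threshold. The exact permutation p was 0.0286. Per2 was called in 6 of 16 alternative fits, among them DESeq2, edgeR's exact and likelihood ratio tests and the fit without HVCN1 null heart 2. Its log2 fold change was 1.24 within the hearts with high and 1.11 within those with low atrial markers. With 2 hearts a group, neither passed the test (edgeR adjusted p = 0.647 and 0.248).

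Per3 (ENSMUSG00000028957, chr4:151003652-151044665, minus strand), the third PERIOD gene, which is not needed for the clock to run, had a CPM of 15.8, 9.34, 16.2 and 16.5 in HVCN1 null hearts 1 to 4. In WT hearts 5 to 8 it was 9.49, 9.49, 10.3 and 12.9. HVCN1 null hearts 1, 3 and 4 were above all WT hearts, whereas heart 2 was below all of them. The log2 fold change of 0.46 (95% interval 0.05 to 0.86) did not pass the test (edgeR adjusted p = 0.380, exact permutation p = 0.143). It was 0.35 within the hearts with high and 0.55 within those with low atrial markers. Per3 was not called in either set (2 hearts a group). The 0.35 rests on heart 3 (16.2 CPM), since heart 2 (9.34 CPM) was below WT hearts 5 and 7.

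Dbp (ENSMUSG00000059824, chr7:45705088-45710203, plus strand) encodes a PAR bZIP activator that binds D-boxes and is a standard readout of ARNTL activity. Its CPM was 37.5, 16.4, 59.5 and 46.9 in the HVCN1 null group (hearts 1 to 4) against 16.5, 20.6, 15.8 and 28.1 in the WT group (hearts 5 to 8). Hearts 1, 3 and 4 were again above every WT heart, and heart 2 was at the level of the lowest WT hearts. The means were 40.1 ± 18.2 and 20.2 ± 5.62 CPM, and the log2 fold change was 0.99 (standard error 0.33, 95% interval 0.25 to 1.72), which did not pass the test (edgeR adjusted p = 0.264, exact permutation p = 0.114). Within the hearts with high and low atrial markers the log2 fold change of Dbp was 1.22 and 0.81. Neither passed the test (edgeR adjusted p = 0.932 and 0.192, 2 hearts a group). The 1.22 rests on heart 3 (59.5 CPM), since heart 2 (16.4 CPM) was at the WT level. Exons of Dbp overlap those of Sphk2 on the opposite strand. The libraries were made with strand selection, but whether counting used strand is not stated, so reads of the 2 genes may not be separated. Sphk2 itself had a log2 fold change of 0.02.

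Arntl (ENSMUSG00000055116, chr7:113207465-113314126, plus strand), the activator without which the clock stops, had a CPM of 20.4, 23.9, 14.1 and 14.4 in HVCN1 null hearts 1 to 4. In WT hearts 5 to 8 it was 23.5, 27.3, 28.5 and 20.5. HVCN1 null hearts 3 and 4 were well under all WT hearts, heart 1 was just under WT heart 8, and heart 2 was inside the WT range. The log2 fold change of -0.45 (standard error 0.18, 95% interval -0.85 to -0.06) did not pass the test (edgeR adjusted p = 0.366, exact permutation p = 0.114). Within the hearts with high and low atrial markers it was -0.45 and -0.44. Arntl was not called in either set (2 hearts a group). The value in the high set rests on heart 3 (14.1 CPM), since heart 2 (23.9 CPM) was between WT hearts 5 and 7.

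The other activators showed smaller differences. Clock, the main partner of ARNTL, had CPM from 36.2 to 53.4 in HVCN1 null hearts and from 36.3 to 56.0 in WT hearts, almost the same range. Its log2 fold change was -0.06 (95% interval -0.40 to 0.29, edgeR adjusted p = 0.955). Npas2, a relative of CLOCK that can take its place, had CPM of 10.9, 12.4, 9.23 and 6.67 in the HVCN1 null group (hearts 1 to 4) against 12.0, 10.4, 13.0 and 9.69 in the WT group (hearts 5 to 8). The groups overlapped, with heart 4 the lowest of all, and the log2 fold change was -0.21 (95% interval -0.61 to 0.19, edgeR adjusted p = 0.810).

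Among the repressors outside the Per family, Cry2, a cryptochrome that blocks the ARNTL pair, had CPM from 23.2 to 29.7 in HVCN1 null and from 24.5 to 30.4 in WT hearts. Its log2 fold change was -0.10 (95% interval -0.32 to 0.13). Nr1d1, which encodes the heme receptor REV-ERB alpha, had CPM of 107, 91.6, 128 and 118 in the HVCN1 null group (hearts 1 to 4) against 106, 110, 116 and 125 in the WT group (hearts 5 to 8). Heart 2 was the lowest and heart 3 the highest of all, and the log2 fold change was -0.04 (95% interval -0.29 to 0.21), with the opposite sign when library sizes were not scaled. Nr1d2, its close relative REV-ERB beta, had CPM from 54.1 to 60.5 in HVCN1 null and from 42.5 to 62.0 in WT hearts (log2 fold change 0.11, 95% interval -0.14 to 0.36). The adjusted p-values of these 3 genes were 0.857, 0.963 and 0.853 (edgeR), and their intervals exclude a change as large as that of Per1. Exons of Nr1d1 overlap Thra, and exons of Cry2 overlap D930015M05Rik, on the opposite strand. Thra had a log2 fold change of 0.11, and D930015M05Rik had 1 to 7 counts per heart.

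**Figure D2:**
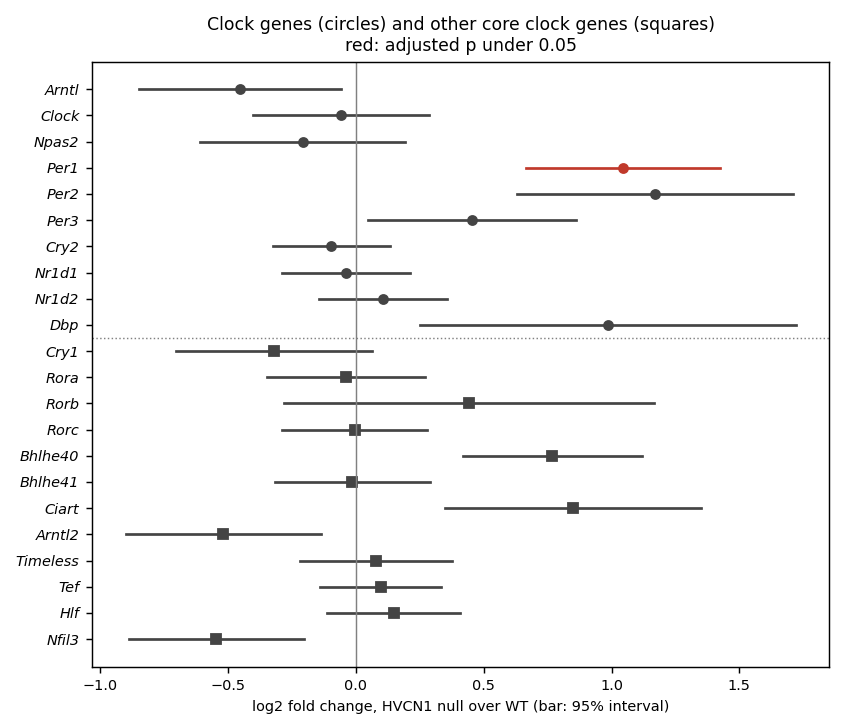
Log2 fold change of HVCN1 null over WT (x axis) with its 95% interval for the 10 clock genes (circles) and 12 other core clock genes (squares). Per1, in red, passed an adjusted p under 0.05, and Per2, Dbp, Ciart and Bhlhe40 have estimates between 0.77 and 1.17.

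Levels differed widely between the genes. In WT hearts Nr1d1 was highest at 37.1 ± 2.66 CPM per kb of exon, above every other gene in every heart. Nr1d2 (9.80 ± 1.48), Per1 (7.79 ± 1.58) and Dbp (6.76 ± 1.88 CPM per kb) followed, each overlapping the next over the 4 hearts. Cry2 (4.41 ± 0.393), Clock (3.50 ± 0.616) and Arntl (3.32 ± 0.486 CPM per kb) were below Dbp in every heart, and each again overlapped the next. Npas2 (2.36 ± 0.316), Per3 (1.10 ± 0.166) and Per2 (0.701 ± 0.157 CPM per kb) came last, with no overlap between them. In HVCN1 null hearts Nr1d1 was again first at 36.2 ± 5.04 CPM per kb. Per1 (16.1 ± 3.06) and Dbp (13.4 ± 6.08 CPM per kb) then stood before Nr1d2 (10.5 ± 0.538 CPM per kb), though Dbp overlapped both of its neighbours. Per2 (1.58 ± 0.513) and Per3 (1.51 ± 0.357 CPM per kb) were last and overlapped. The spread between hearts was widest for Dbp, with a coefficient of variation of 45.4% in HVCN1 null and 27.8% in WT hearts. It was narrow for Nr1d2 in HVCN1 null hearts (5.10%) and for Nr1d1 in WT hearts (7.18%). The median over the 10161 genes with a mean of at least 5 CPM was 11.3% and 10.7%.

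The arms of the clock were then compared within each heart. The balance of the arms is the mean log2 CPM of Arntl, Clock and Npas2 less that of Per1, Per2, Per3, Cry2, Nr1d1 and Nr1d2, so a low value means that repressor RNAs were high for the activator RNAs. It was -0.70, -0.25, -1.25 and -1.08 in the HVCN1 null group (hearts 1 to 4) against -0.17, -0.01, 0.05 and -0.41 in the WT group (hearts 5 to 8). Hearts 1, 3 and 4 were below every WT heart, and heart 2 was between WT hearts 5 and 8. The means were -0.82 ± 0.45 and -0.14 ± 0.21, a difference of -0.68, given without a test because the genes were chosen with results known. The repressor arm alone averaged 5.13 ± 0.18 log2 CPM in HVCN1 null and 4.70 ± 0.12 log2 CPM in WT hearts and did not overlap. Per1 and Per2, which did not overlap either, are among its 6 genes. Log2 fold changes were 1.04, 1.17 and 0.46 for Per1, Per2 and Per3, against -0.10, -0.04 and 0.11 for Cry2, Nr1d1 and Nr1d2. The higher mean of the arm thus rests on the Per genes and not on all 6. The activator arm averaged 4.31 ± 0.31 and 4.57 ± 0.16 log2 CPM and overlapped. The difference in balance was -0.69 within the hearts with high atrial markers and -0.68 within those with low atrial markers. In the high set HVCN1 null hearts 2 and 3 stood far apart (-0.25 and -1.25), so the -0.69 rests mostly on heart 3. With 1 heart left out the difference in balance ran from -0.87 to -0.54.

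**Figure D3:**
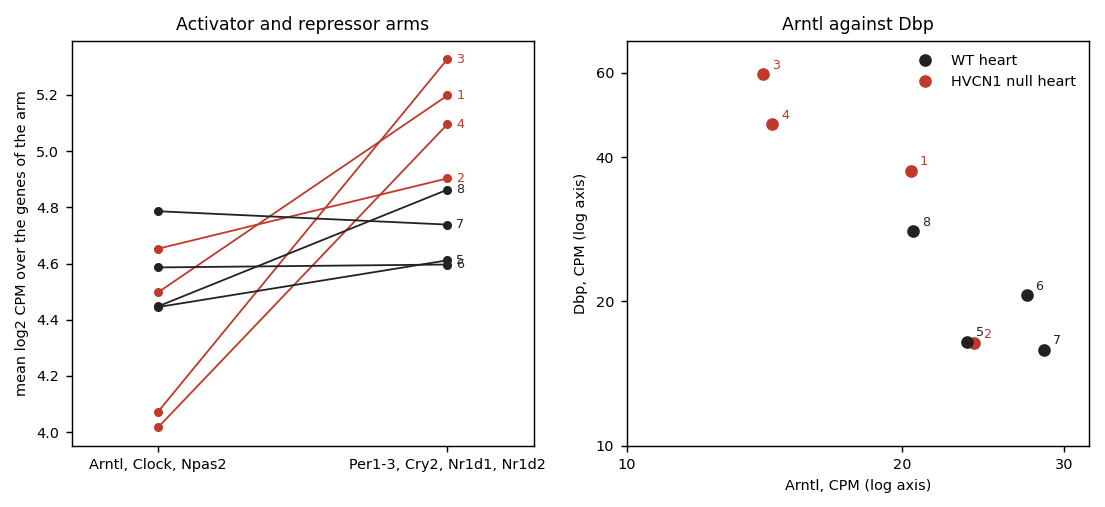
Left, mean log2 CPM of the activators (Arntl, Clock, Npas2) and of the 6 repressors, with a line for each numbered heart, HVCN1 null in red and WT in black. Right, CPM of Dbp against that of Arntl on log axes, where HVCN1 null hearts 3 and 4 are low in Arntl and high in Dbp and heart 2 lies beside WT heart 5.

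HVCN1 null heart 2 was therefore unlike the other 3 of its group for Per3 and Dbp. For Arntl it was the highest of its group (23.9 CPM), but heart 1 (20.4 CPM) was nearer to it than to hearts 3 and 4. Heart 2 nonetheless had the highest Per1 of all hearts (103 CPM). Without it, the groups did not overlap for Arntl, Per1, Per2, Per3 and Dbp, and Per1, Per2 and Dbp were called. Since this heart was singled out by its values of Arntl, Per3 and Dbp, leaving it out fixes this outcome and nothing is read from it. With any other heart left out, the groups did not overlap for 2 genes (Per1 and Per2), or for 3 without WT heart 8, where Nr1d2 joined them. It was also among the hearts with high atrial markers, as was heart 3, which had the lowest Arntl and the highest Dbp. Its total of 36396297 counts was the highest of the HVCN1 null group.

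Whether clock genes varied together from heart to heart was examined over the 45 pairs, by log2 CPM in 8 hearts. For 17 pairs with Per1 or Per2 the genotypes form separate clusters and no pooled correlation is given, which left 28. Of these, 7 had an exact permutation p under 0.05 and 2 had an adjusted p under 0.05 over the 45 pairs. Arntl and Dbp ran opposite to each other (r = -0.92, exact permutation p = 0.00122, adjusted p = 0.0402, Spearman's rho = -0.93 with exact permutation p = 0.00223, adjusted p = 0.10). Without hearts 3 and 4, the farthest from the median of Arntl, r was -0.75 (exact permutation p = 0.0903), so the test no longer held with the 6 hearts left. With the genotype means removed, r was -0.86 (exact permutation p = 0.00868, adjusted p = 0.117), and the sign was the same within each genotype (r = -0.91 in HVCN1 null and -0.71 in WT hearts, n = 4 each, not tested). The log2 CPM of Arntl less that of Dbp was -0.87, 0.55, -2.07 and -1.70 in the HVCN1 null group (hearts 1 to 4) against 0.51, 0.41, 0.85 and -0.45 in the WT group (hearts 5 to 8). Heart 2 thus had a value between those of WT hearts 5 and 7, and WT heart 8 was the only WT heart below 0. Per3 and Dbp ran together (r = 0.95, exact permutation p = 0.00179, adjusted p = 0.0402, Spearman's rho = 0.81 with exact permutation p = 0.0218, adjusted p = 0.163). That r was 0.93 (exact permutation p = 0.0222) without hearts 3 and 4, the farthest in Per3, and 0.92 (exact permutation p = 0.0382, adjusted p = 0.180) with the genotype means removed. Among the remaining 5 pairs with an exact permutation p under 0.05, none of which held after adjustment, Arntl rose and fell with Npas2 (r = 0.81) and opposite to Per3 (r = -0.87), and Cry2 with Nr1d1 (r = 0.83). With the genotype means removed, the smallest p-values were those of Nr1d1 with Dbp (r = 0.93) and of Per3 with Nr1d1 (r = 0.90, exact permutation p = 0.00694 each), pairs whose pooled r was 0.62 and 0.60, and 0 of the 28 pairs had an adjusted p under 0.05. All hearts shared 1 sequencing run, and r also carries what hearts share in depth and tissue makeup.

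Likeness of the clock genes to the arm balance over the 8 hearts was highest for Arntl (r = 0.98), which is part of it, and for Dbp (r = -0.95), which is not. For Per3, also part of it, r was -0.91, and for Per1 and Per2, whose groups did not overlap, no pooled r is given. Over all other protein-coding genes tested, those most like the balance were Fer1l6 (r = 0.98), Ube2h (0.97), Klf11 (0.96), Eri2 (0.96) and Gas2l3 (0.96). Those most opposite to it were Polrmt (r = -0.97), Trmu (-0.95), Arfrp1 (-0.95), Serhl (-0.95) and Farsa, whose groups did not overlap and whose pooled r is not given. These are the extremes picked from all protein-coding genes tested, described over 8 hearts with no test. Levels were low for Fer1l6 (0.27 to 0.71 CPM), Eri2 (1.18 to 2.72 CPM) and Gas2l3 (1.48 to 3.04 CPM). With library sizes not scaled, r was 0.74 for Ube2h and -0.85 for Arfrp1, and 0.88 to 0.98 in size for the others given.

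**Figure D4:**
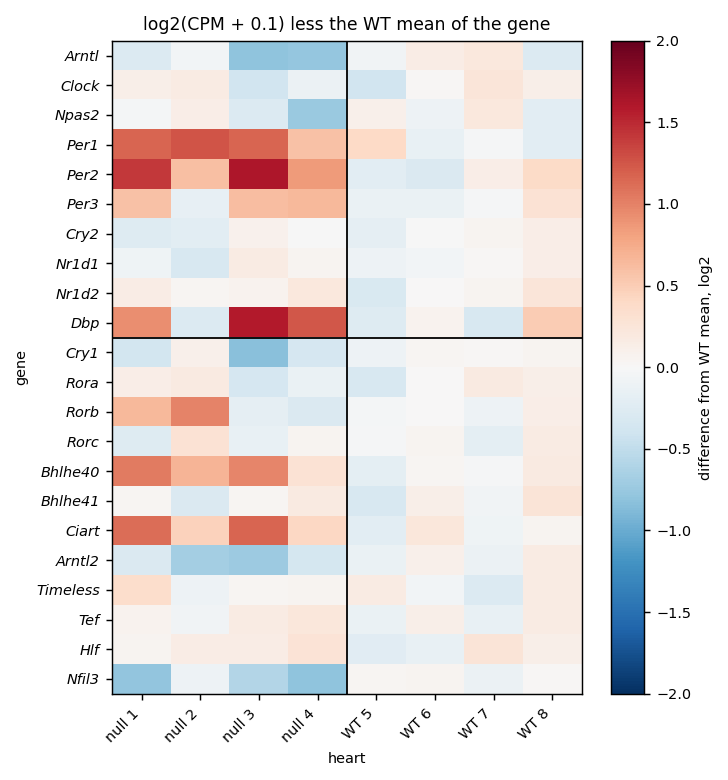
Log2(CPM + 0.1) of each gene in each heart less the WT mean of that gene (colour, red higher and blue lower), for the 10 clock genes above the line and 12 other core clock genes below it. Per1, Per2, Bhlhe40 and Ciart are red in all 4 HVCN1 null hearts, and Dbp is red in hearts 1, 3 and 4 but not in heart 2.

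The other genes of the core clock were examined as a list of 12, all tested. The edgeR quasi-likelihood test called 0 of them, with 2 higher and 2 lower at an unadjusted p under 0.05, beside 5.46% and 5.52% of all genes, the shares against which the counts of the next lists also stand. DESeq2 called 2 (Bhlhe40 and Ciart), edgeR's exact and likelihood ratio tests 1 each (Bhlhe40), and voom 0. Bhlhe40, which encodes a repressor that competes for E-boxes, had CPM of 56.7, 44.3, 54.7 and 33.7 in the HVCN1 null group (hearts 1 to 4) against 24.1, 28.4, 27.2 and 31.4 in the WT group (hearts 5 to 8). The groups did not overlap, and the log2 fold change was 0.77 (95% interval 0.42 to 1.12, edgeR adjusted p = 0.0505), with a call in 7 of 16 alternative fits. Ciart, a repressor of the CLOCK complex, had CPM of 4.32, 2.70, 4.45 and 2.63 in the HVCN1 null group (hearts 1 to 4) against 1.67, 2.29, 1.83 and 2.03 in the WT group (hearts 5 to 8). These groups did not overlap either, with a log2 fold change of 0.85 (95% interval 0.35 to 1.35, edgeR adjusted p = 0.135). Nfil3, a repressor that competes with DBP for D-boxes, had CPM of 9.19, 15.0, 10.6 and 9.13 in HVCN1 null hearts 1 to 4 and from 14.7 to 16.7 in WT hearts. Heart 2 was the only HVCN1 null heart inside the WT range, and the log2 fold change was -0.54 (95% interval -0.89 to -0.20, edgeR adjusted p = 0.169). Arntl2, a paralog of Arntl chosen after its values were seen, was lower without overlap (2.38 ± 0.384 against 3.42 ± 0.369 CPM, log2 fold change -0.52, edgeR adjusted p = 0.257). The median log2 fold change of the list was 0.04.

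Of 10 genes whose proteins modify clock proteins (kinases, ubiquitin ligases, a deacetylase and others), edgeR called 0, as did DESeq2, voom and edgeR's other tests, with 1 higher and 0 lower at an unadjusted p under 0.05. The largest log2 fold changes were those of Fbxl21 (-0.30, 95% interval -1.42 to 0.82), Usp2 (0.25, 0.02 to 0.48) and Sirt1 (0.25, -0.02 to 0.52). Of 13 genes known as clock-controlled in the heart, 1 (Pdk4) was called lower and none higher by the edgeR quasi-likelihood test, with 3 lower and 1 higher at an unadjusted p under 0.05. DESeq2 called Pdk4 lower and Kcnip2, a potassium channel subunit gene, higher. The exact and likelihood ratio tests of edgeR called Pdk4 and Ucp3, a mitochondrial uncoupling protein gene, lower, and voom called 0. Kcnip2, named after its values were seen, was at 173 to 190 CPM in HVCN1 null and 97.2 to 150.5 CPM in WT hearts, without overlap (log2 fold change 0.47, edgeR adjusted p = 0.162). Ucp3, also named after its values were seen, was at 17.8 to 51.6 and 47.9 to 76.6 CPM (log2 fold change -1.03, edgeR adjusted p = 0.158). Pdk4, a kinase that holds back glucose oxidation, had CPM of 203, 265, 154 and 340 in the HVCN1 null group (hearts 1 to 4) against 598, 811, 683 and 368 in the WT group (hearts 5 to 8). The groups did not overlap, though heart 4 and WT heart 8 were close. Pdk4 fell by 1.35 on the log2 scale (standard error 0.28, edgeR adjusted p = 0.0493), a call kept in 6 of 16 alternative fits and lost, among others, under RLE scaling, with library sizes not scaled and in voom. With 1 heart left out its adjusted p ran from 0.0257 to 0.163, and the call was kept only without HVCN1 null heart 4 or WT heart 8. The median log2 fold change of these 13 genes was 0.08.

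Genes that answer to acute signals, some of which also act on Per1, were examined as 3 further lists. Of 10 glucocorticoid-responsive genes edgeR called 0, as did DESeq2, voom and edgeR's other tests, with 3 higher and 0 lower at an unadjusted p under 0.05 and a median log2 fold change of 0.18. The largest were Fkbp5 (0.53, 95% interval 0.07 to 0.99), Errfi1 (0.48, 0.05 to 0.92) and Zbtb16 (-0.47, -1.13 to 0.19). Of 11 immediate early genes edgeR called 0, with 2 higher and 0 lower at an unadjusted p under 0.05, DESeq2 called 1 (Jun), and edgeR's exact and likelihood ratio tests and voom called 0. Nr4a1 had a log2 fold change of 0.79 (95% interval 0.14 to 1.43), Jun 0.42 (0.14 to 0.71) and Atf3 0.39 (-0.26 to 1.04), and the median of the list was 0.18.

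Of 7 temperature-responsive genes 3 were called higher, beside 0.743% of all genes tested, and the median log2 fold change of the list was 0.31. The called genes were Dnajb1, Hspa1a and Hspa1b, all of them chaperone genes, while the chaperone genes Hsph1 (0.31, 95% interval -0.25 to 0.87) and Hspa8 (-0.23, -0.50 to 0.05), named after their values were seen, were not called. Dnajb1, a co-chaperone, was at 43.0, 27.4, 39.0 and 29.5 CPM in HVCN1 null hearts 1 to 4 and at 12.8 to 16.3 CPM in WT hearts. The groups stood far apart, with an increase of 1.19 on the log2 scale (standard error 0.15, edgeR adjusted p = 0.00410) that stayed called in all 16 alternative fits. Hspa1a and Hspa1b, the inducible HSP70 genes, had log2 fold changes of 2.67 and 3.02 (edgeR adjusted p = 0.0202 and 0.0104). They are near-identical copies whose reads may be split between them, so each value is uncertain. Hspa1b was called in 15 of 16 alternative fits (not without WT heart 6, adjusted p = 0.0529). Hspa1a was called in 12 of 16, with no call in voom (adjusted p = 0.0815) or without WT heart 5, 6 or 8 (edgeR adjusted p = 0.0728, 0.0807 and 0.0679). Without HVCN1 null heart 1 their log2 fold changes were 1.98 (Hspa1a) and 2.33 (Hspa1b). Hspa1b was at 40.4, 10.3, 15.1 and 9.89 CPM in HVCN1 null hearts 1 to 4, against 1.95 to 2.88 CPM in WT hearts. The cold-responsive genes Cirbp and Rbm3, chosen after their values were seen, had log2 fold changes of 0.18 (95% interval -0.13 to 0.50) and 0.28 (0.01 to 0.54) and were not called.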

How the data were processed

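Raw counts per gene and heart were deposited by the authors, without normalization: poly-A libraries were read as 2 × 50 nt pairs, aligned with STAR and counted with featureCounts, with mm10 (GRCm38) in the submitters' processing notes. Their versions and the strand setting of the counting are not given in the sources used here. Symbols and exon lengths were taken from GENCODE M21 for 38872 (99.5%) of the listed genes. The filter was filterByExpr, scaling was TMM, and DEGs were called with the quasi-likelihood test of edgeR 4.0.16 (R 4.3.3) at a Benjamini-Hochberg adjusted p under 0.05 over 14796 genes. Total counts per heart ran from 25851255 to 38874640. Log2 CPM used a prior count of 2. For single CPM values and correlations, exact permutation tests (two-sided) enumerated 70 assignments and 40320 orders. The edgeR p-values set a difference against the variation between these hearts, moderated over all genes. The permutation p-values rank a difference or an r among those of reassigned or reordered hearts. The edgeR fit was checked on simulated counts drawn with its own fitted dispersions, which cannot show that its model suits these hearts. The test over assignments was checked on a made-up set of values, and the correlation tests were not checked in this way.

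The 10 clock genes and the lists were chosen with earlier results of these data known. Named genes were the 10, Hvcn1, the called genes of each other list or otherwise the 3 with the largest log2 fold change, and the 5 genes most like and the 5 most opposite to the arm balance. Alternatives were RLE or no scaling, no filter on low counts or a minimum of 1 CPM in 4 hearts, voom (limma 3.58.1), DESeq2 1.42.0, the exact and the likelihood ratio test of edgeR, each heart left out, other compositions of the arms and a prior count of 0.5. The fits by atrial markers were added after seeing the data. The lists of other cell types comprised erythroid, macrophage, B cell, T cell, endothelial, fibroblast, adipocyte, ventricular, atrial and smooth muscle markers. In the quasi-likelihood fit of all 8 hearts, of these only Acta2 of smooth muscle was called (log2 fold change 1.32, adjusted p = 0.0466). The 8 macrophage markers were all lower (median log2 fold change -0.31), 4 of them at an unadjusted p under 0.05. All 6 erythroid markers (-0.99) and the 3 adipocyte markers tested (-0.77) were lower too, with groups that overlapped in their summed CPM (1290 to 8382 against 3012 to 15213 for erythroid, 2.07 to 23.9 against 0.371 to 55.2 for adipocyte markers, HVCN1 null against WT). Plots were made with matplotlib 3.10.9 in Python 3.11.15.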

Additional observations from a re-analysis of the deposited data

Results flagged for a closer look

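In 56 groups of 4 hearts (28 measures in each genotype), Dixon's test found 4 hearts far from the other 3 of their group, where chance gives about 1 in 20 groups. Per1 in HVCN1 null heart 4 was 65.1 CPM, and its gap to the nearest heart took a 0.830 share of the range of the group. Per3 in HVCN1 null heart 2 was 9.34 CPM, with a gap share of 0.897, while the other 3 hearts lay between 15.8 and 16.5 CPM. Hspa1b in HVCN1 null heart 1 was 40.4 CPM, with a gap share of 0.830. Hspa1a in WT heart 7 was 3.31 CPM, with a gap share of 0.852 in a group that otherwise ran from 2.63 to 2.73 CPM.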

How the results depend on the processing

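No paired analysis was possible because the genotypes share no replicate numbers in the labels. Per1 was the 1 clock gene called, and 2 (Per1 and Per2) were called under RLE scaling, without the filter, with edgeR's exact and likelihood ratio tests and with DESeq2. With 1 heart left out the count ran from 0 to 3, and it was 0 in the 4 hearts with high and in the 4 with low atrial markers, where each genotype has 2 hearts. Over all genes, 169 were called, against 367 with the exact test, 376 with the likelihood ratio test, 466 with DESeq2, 71 to 152 with 1 heart left out, and 24 and 71 in the hearts with high and low atrial markers. In the other lists 4 genes were called, against 8 with DESeq2, 2 with voom, 1 to 6 with 1 heart left out, and 0 in either atrial set. Hvcn1 had a log2 fold change of -4.56 in the hearts with high atrial markers and there missed the threshold (adjusted p = 0.0575). The clock genes whose groups did not overlap numbered 2 to 5 with 1 heart left out, 5 without HVCN1 null heart 2, 3 without WT heart 8 and 2 otherwise, while the share over all genes rose from 7.06% to between 8.46% and 11.9%. Pairs of clock genes with an adjusted correlation p under 0.05 fell from 2 to 0 with library sizes not scaled and with genotype means removed, and numbered 0 to 2 with 1 heart left out. They numbered 0 in 7 of the 8 cases, where fewer hearts also raise the smallest p. The arm balance difference lay within 1 SD of -0.68 in every alternative run, the SD being that of the balance between hearts of a genotype, pooled. Scaling cancels within a heart, so the -0.68 under RLE scaling and with library sizes not scaled was fixed in advance. The other compositions of the arms left out Cry2 or Npas2 or added Dbp, and none left out a Per gene.

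Signs changed only for differences that did not pass the test. Nr1d1 gave a log2 fold change of 0.000656 and a CPM difference of 0.0669 with library sizes not scaled, and -0.11 to 0.045 and -8.37 to 3.58 CPM with 1 heart left out. With 1 heart left out Clock gave -0.16 to 0.041 and -5.57 to 1.38 CPM, and Fbxl21 -0.60 to 0.15. Fbxl21 was at 0.17 with atrial markers as a covariate, and Zbtb16 at 0.14 in the hearts with high atrial markers. In the main fit these 2 genes were at -0.30 and -0.47, which are not small. The cause of these changes was not tested. With 4 hearts in each genotype, the differences in Arntl, Per3 and Dbp did not pass the test. Dbp, with the widest spread, passed it in 1 of 16 alternative fits, that without HVCN1 null heart 2 (edgeR adjusted p = 0.0301). That heart was singled out partly by its low Dbp, so nothing is read from this.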
